A study of Homo sapiens with 8 samples.

Results

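Gemcitabine, a deoxycytidine analog used against biliary tract cancer, depends on a short chain of gene products to enter a cell, become active and reach its targets. The genes described here are 10 members of that chain, chosen by name: SLC29A1 and SLC29A2 (uptake), DCK (activation), CDA, DCTD, NT5C2 and NT5C (inactivation), and RRM1, RRM2 and RRM2B (subunits of the target enzyme ribonucleotide reductase). They are 10 of 34809 gene names on the array, each was read by 1 probe (the brightest of its probes), and 10 of 10 were among the 20464 genes that could be tested.

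HuCCT1 is an established cell line from a human cholangiocarcinoma, and its RNA was measured on 8 one-colour Agilent expression arrays. Control cells carried the vector shControl (2 arrays) or shNontarget (2 arrays), and BEX2-knockdown cells carried the short hairpin vector shBEX2-1 (2 arrays) or shBEX2-2 (2 arrays). No further treatment is named for any array, and gemcitabine is not among the labels, so all levels are those of cells without a stated drug exposure. In a separate viability assay the study found BEX2-knockdown cells to be more sensitive to gemcitabine than control cells. The question put to the arrays here is how far the genes that handle the drug differ between control and BEX2-knockdown cells. Whether these genes bear on that sensitivity was not tested. The study describes its control cells as carrying a hairpin against luciferase, without saying which of these control vectors that is, and the sources used here do not say that arrays of 1 vector came from separate cultures, so p-values may measure technical spread alone.

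Gemcitabine is carried across the membrane by nucleoside transporters and is phosphorylated by deoxycytidine kinase, the product of DCK, to its monophosphate. Further kinases then make the diphosphate, which inhibits ribonucleotide reductase, and the triphosphate, which is built into DNA. Deaminases and nucleotidases take the drug or its monophosphate out of this path. Ribonucleotide reductase makes deoxynucleotides from ribonucleotides and joins a large subunit from RRM1 to a small subunit from RRM2, which dividing cells make in S phase, or from RRM2B, which p53 induces.

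The sequences before the transcription starts of RRM1, RRM2 and SLC29A1 are shown because these are the 3 members that changed together in the results that follow. They are 250 bases upstream of a start in RefSeq (build GRCh38.p14, strand of the gene, 5′ to 3′), in lower case with matches in capitals to 3 motifs known from promoters of cell cycle genes. The motifs, searched on both strands, were the CCAAT box, the cell cycle homology region CHR (TTTGAA) and the E2F site in 4 spellings (TTTCCCGC, TTTCGCGC, TTTGCCGC and TTTGGCGC).
RRM2, chr2:10122489-10122738: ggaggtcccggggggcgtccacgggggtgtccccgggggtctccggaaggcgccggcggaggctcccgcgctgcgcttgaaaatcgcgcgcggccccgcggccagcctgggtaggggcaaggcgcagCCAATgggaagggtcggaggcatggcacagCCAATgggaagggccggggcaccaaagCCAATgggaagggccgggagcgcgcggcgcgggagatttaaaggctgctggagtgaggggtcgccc
RRM1, chr11:4094435-4094684: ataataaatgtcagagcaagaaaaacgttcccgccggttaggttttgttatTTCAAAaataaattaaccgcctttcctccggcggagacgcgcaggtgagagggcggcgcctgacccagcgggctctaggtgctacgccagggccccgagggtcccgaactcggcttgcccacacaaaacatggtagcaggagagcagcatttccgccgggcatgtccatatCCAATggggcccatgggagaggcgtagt
SLC29A1, chr6:44223345-44223594: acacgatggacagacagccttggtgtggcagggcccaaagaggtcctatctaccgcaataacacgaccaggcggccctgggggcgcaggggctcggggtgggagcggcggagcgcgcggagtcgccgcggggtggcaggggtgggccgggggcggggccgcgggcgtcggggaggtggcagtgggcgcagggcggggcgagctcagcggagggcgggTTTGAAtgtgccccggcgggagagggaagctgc

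RRM2 has 2 starts in the table. The window shown held 3 CCAAT boxes, at 123, 93 and 66 bases before the start, and that of the other start 1, at 249 bases. As many as 3 occurred in 2.93% of the 35116 promoter windows of this length in the RefSeq table, and at least 1 in 32.0%. RRM1 had 1 CCAAT box, 28 bases before its start, and 1 reverse-strand match to CHR, 199 bases before it. SLC29A1 has 2 starts in the table, and the one shown had 1 CHR match, 33 bases before the start, while the other had no match. A CHR match was found in 13.3% of all windows and one of the E2F spellings in 2.79%. Of the 8 members in the table (13 starts), RRM1 and RRM2 had a CCAAT box, RRM1, SLC29A1 and NT5C2 had a CHR match, and 0 had an E2F match. These matches are letters in a window and do not show a bound factor.

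Some measured facts of the whole series bear on every value. Of 58717 spots that were not controls, each array had 59.8% to 64.6% well above background, and precision is limited by how many arrays there were. All arrays lay on 1 slide, with control cells in slide row 1 and BEX2-knockdown cells in slide row 2, so that position and group cannot be told apart. The shNontarget arrays stood apart from each other, since 34.9% of the tested genes were over 1 log2 unit apart between them, against 0.562% to 1.76% between the arrays of each other vector. BEX2, the targeted gene, read intensities of 71.0 and 55.7 with shControl, 115 and 48.8 with shNontarget, 11.9 and 11.1 with shBEX2-1, and 20.4 and 26.0 with shBEX2-2. All 4 BEX2-knockdown arrays were below all control arrays, and since neither shBEX2-1 reading was well above background, BEX2 there was at least 3.83-fold lower than in control cells, a bound set by the probe's own readings. In shBEX2-2 cells its log2 fold change of -1.32 did not pass the test used below for single sublines (limma adjusted p = 0.0813). The biliary and epithelial markers KRT7, KRT19, KRT8, KRT18, EPCAM, SOX9 and CDH1 were well above background on all 8 arrays. Lists of other cell types were split. Of the hepatocyte markers CPS1 was well above background on 8 arrays, CYP3A4 on 1, and ALB, APOA2 and TTR on 0. Of the fibroblast markers COL1A1 and LUM were so on 8 arrays, DCN on 2 and COL3A1 on 0, and of the endothelial markers VWF and CDH5 on 8 and PECAM1 on 0. Of the leukocyte markers CD14 was well above background on 8 arrays, PTPRC on 7 and CD3E on 3. Their summed level (linear scale relative to each array's 75th percentile) was 0.366 to 0.497 on the control arrays and 0.549 to 0.614 on the BEX2-knockdown arrays. On the same scale the sum of the biliary and epithelial markers was 633 to 895 and 854 to 1020. The sums of the other lists overlapped between the groups. The part of the leukocyte sum in the results was not tested.

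In BEX2-knockdown cells 3 of the 10 genes were higher and passed the test, and none was lower past it. They were SLC29A1, the main gemcitabine importer, at 2.35-fold, RRM1 at 2.54-fold and RRM2 at 2.70-fold of the control level. The activating kinase DCK and all 4 inactivating enzymes did not pass. The threshold was an adjusted p of 0.05 (limma, 4 against 4 arrays, Benjamini-Hochberg over all 20464 genes), which 12.9% of all genes passed, 6.68% higher and 6.26% lower. The 5 members with a positive and the 5 with a negative log2 fold change had a median of 0.20, beside 0.027 for all genes tested. In SLC29A1, RRM1 and RRM2 every BEX2-knockdown array lay above every control array, a separation in either direction that 22.1% of all genes showed.

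**Figure D1:**
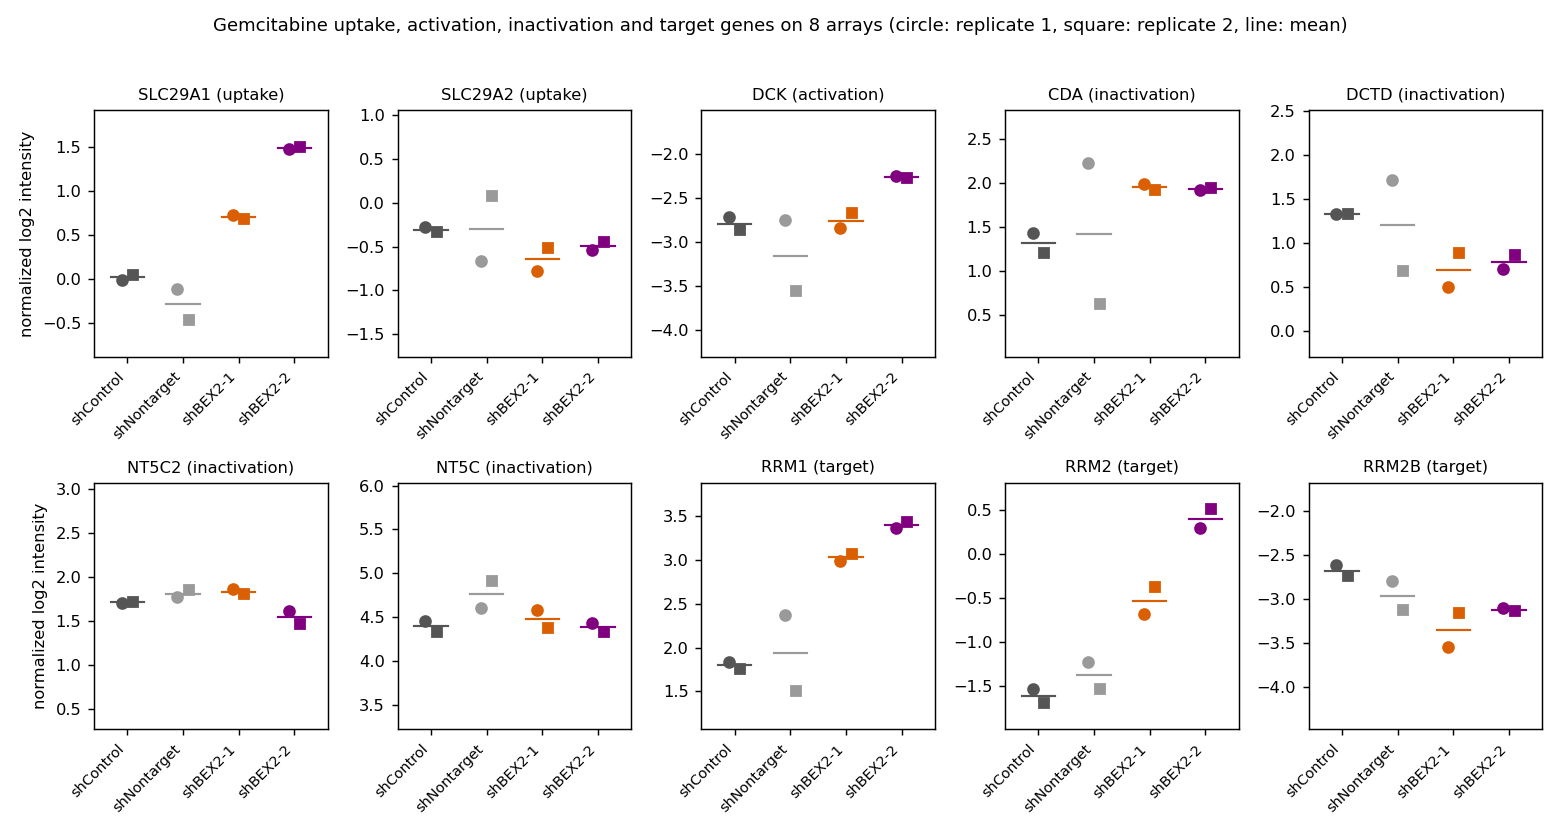
Normalized log2 intensity (y axis, log2 relative to each array's 75th percentile, with the same span in each panel) of the 10 genes on 8 arrays, by vector (x axis), with circles for replicate 1, squares for replicate 2 and a line at the mean of each vector. SLC29A1, RRM1 and RRM2 are higher on all 4 BEX2-knockdown arrays and highest with shBEX2-2, while the shNontarget arrays lie far apart in CDA, DCTD, RRM1 and DCK.

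Among the transporters, SLC29A1 (also ENT1, an equilibrative nucleoside transporter) was read by a probe for NM_001078177 on chromosome 6 of hg19, from 44201775 to 44201834. Its normalized log2 intensity, the log2 intensity relative to the 75th percentile of its array, was -0.0067 and 0.043 with shControl and -0.11 and -0.47 with shNontarget. In shBEX2-1 cells it was 0.73 and 0.68, and in shBEX2-2 cells 1.48 and 1.50. The arrays of the 4 vectors did not overlap, in the rising order shNontarget, shControl, shBEX2-1 and shBEX2-2, a pattern not counted over all genes. The log2 fold change of BEX2-knockdown over control cells was 1.23 (standard error, SE, 0.23, 95% confidence interval 0.72 to 1.75, adjusted p = 0.00941 from limma). A two-sided exact permutation test of these 4 against 4 arrays gave p = 0.0286, the smallest it allows, as it did for RRM1 and RRM2. Any gene whose groups do not overlap reaches this p (22.1% of all genes), so it adds nothing to that separation. The call was lost where shNontarget alone was the control (adjusted p = 0.0744 from limma) and in the rank product (0.0730, its percentage of false positives as a fraction).

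SLC29A2 (ENT2), the second equilibrative carrier, differed less between groups than within one. Its values were -0.28 and -0.33 in shControl, -0.67 and 0.070 in shNontarget, -0.77 and -0.52 in shBEX2-1 and -0.54 and -0.45 in shBEX2-2 cells. Only 1 of the 4 BEX2-knockdown arrays lay below all control arrays. Its log2 fold change of -0.27 (95% confidence interval -0.65 to 0.11, adjusted p = 0.350 from limma) did not pass, and the interval runs from 0.638 to 1.08 times the control level.

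DCK makes the first and limiting phosphorylation of gemcitabine. Its probe read -2.72 and -2.87 in shControl, -2.76 and -3.56 in shNontarget, -2.84 and -2.67 in shBEX2-1 and -2.25 and -2.27 in shBEX2-2 cells. Both shBEX2-2 arrays and 1 shBEX2-1 array were above all control arrays, while the other shBEX2-1 array lay above 2 control arrays and below the other two. Its log2 fold change came to 0.47 (SE 0.24, 95% confidence interval -0.065 to 1.00, adjusted p = 0.238 from limma). For shBEX2-2 cells alone it was 0.72 (adjusted p = 0.142 from limma), and for shBEX2-1 cells 0.22 (0.673).

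The inactivating enzymes gave no call in either direction. CDA, the cytidine deaminase that turns gemcitabine into an inactive uridine analog, read 1.43 and 1.21 in shControl cells, and between 1.92 and 2.00 on all 4 BEX2-knockdown arrays. The shNontarget arrays, at 2.23 and 0.62, lay outside all 6 other arrays on both sides. Its log2 fold change was 0.57 (SE 0.29, adjusted p = 0.234 from limma). Without shNontarget replicate 1 it was 0.86 and passed (adjusted p = 0.0110 from limma), as it did with only shControl as control (0.63, adjusted p = 0.00187). In those settings 4728 and 6842 of all 20464 genes passed, against 2648 with all arrays. Without shNontarget replicate 2 the log2 fold change of CDA was 0.32 and did not pass (adjusted p = 0.329 from limma).

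DCTD, the deaminase that acts on the monophosphate, read 1.34 on both shControl arrays and 1.72 and 0.69 on the shNontarget arrays. In BEX2-knockdown cells it read 0.50 and 0.88 (shBEX2-1) and 0.71 and 0.87 (shBEX2-2), each below at least 3 of the 4 control arrays. The log2 fold change of -0.53 (SE 0.21, adjusted p = 0.141 from limma) did not pass. Without shNontarget replicate 2 it was -0.72 (limma adjusted p = 0.0111), and against shControl alone -0.60 (0.00854), both past the threshold. In those settings 4309 and 6842 of all 20464 genes passed, against 2648 with all arrays. Without shNontarget replicate 1 the log2 fold change of DCTD was -0.38 and did not pass (limma adjusted p = 0.175). The shNontarget arrays of CDA and of DCTD differed by 1.61 and 1.03, more than either fold change on the log2 scale.

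The nucleotidases NT5C2 and NT5C remove the phosphate again. NT5C2, a cytosolic purine-preferring nucleotidase, ranged from 1.71 to 1.85 on the control arrays, and read 1.87 and 1.80 in shBEX2-1 and 1.62 and 1.47 in shBEX2-2 cells. The shBEX2-2 arrays were below all control arrays and 1 shBEX2-1 array above all of them. Over both sublines its log2 fold change came to -0.074 (limma adjusted p = 0.754), with 0.072 for shBEX2-1 and -0.22 for shBEX2-2, and the difference between the sublines did not pass either (0.29, adjusted p = 0.744). NT5C, the cytosolic deoxyribonucleotidase, ranged from 4.34 to 4.92 on the control arrays and from 4.34 to 4.58 on the BEX2-knockdown arrays, with a log2 fold change of -0.15 (95% confidence interval -0.49 to 0.20, adjusted p = 0.596 from limma). Its sign turned with only shControl as control (0.037).

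The large subunit and the S phase small subunit of ribonucleotide reductase rose together. RRM1 (NM_001033, probe on chromosome 11 of hg19, 4159947 to 4160006) read 1.83 and 1.76 in shControl, 2.37 and 1.51 in shNontarget, 2.99 and 3.07 in shBEX2-1 and 3.36 and 3.43 in shBEX2-2 cells. The highest control array, shNontarget replicate 1, was still below every BEX2-knockdown array. Its log2 fold change was 1.34 (SE 0.20, 95% confidence interval 0.90 to 1.79, adjusted p = 0.00366 from limma).

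RRM2 (NM_001034, probe on chromosome 2 of hg19, 10270487 to 10270546) read -1.53 and -1.69 with shControl and -1.23 and -1.53 with shNontarget. In shBEX2-1 cells it read -0.68 and -0.37, and in shBEX2-2 cells 0.30 and 0.51. Control, shBEX2-1 and shBEX2-2 arrays formed 3 ranges that did not overlap, in that rising order, a pattern not counted over all genes. Its log2 fold change of 1.43 (SE 0.26, 95% confidence interval 0.85 to 2.02, adjusted p = 0.00869 from limma) was the largest of the 10 genes under the main settings. Against shNontarget alone RRM1 and RRM2 kept their direction but not the call (adjusted p = 0.0720 and 0.114 from limma), while leaving out any 1 array left SLC29A1, RRM1 and RRM2 past the threshold.

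RRM2B, the small subunit made outside S phase and after DNA damage, gave opposite signs by its 2 probes, and no direction can be stated for it. Its brightest probe (chromosome 8 of hg19, 103217175 to 103217234) read -2.61 and -2.74 in shControl, -2.80 and -3.12 in shNontarget, -3.54 and -3.16 in shBEX2-1 and -3.10 and -3.13 in shBEX2-2 cells. On this probe 3 of the 4 BEX2-knockdown arrays were below all control arrays, with a log2 fold change of -0.42 (limma adjusted p = 0.167). With normexp background correction it was -0.075 (limma adjusted p = 0.651). With only shControl as control it was -0.56 and passed (limma adjusted p = 0.0369), in a setting where 6842 of all genes tested passed. The other probe (103219914 to 103219973) read -3.58 and -4.16 in shControl, -4.35 and -4.34 in shNontarget, -3.13 and -3.43 in shBEX2-1 and -3.23 and -3.36 in shBEX2-2 cells. On that probe all 4 BEX2-knockdown arrays were above all control arrays, with a log2 fold change of 0.82 (SE 0.22, adjusted p = 0.0377 from limma), past the threshold. Both probes name NM_015713 and were well above background on all 8 arrays, at intensities from 32.9 to 125.5. Across the 8 arrays they correlated with r = -0.55, a description over arrays that share the 2 groups.

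NT5C2 also has a second probe, whose log2 fold change had the other sign (0.61, adjusted p = 0.204 from limma). It read 0.0078 and -0.017 in shControl, -0.92 and 0.48 in shNontarget, 0.89 and 0.59 in shBEX2-1 and 0.26 and 0.25 in shBEX2-2 cells. The shNontarget arrays enclosed both shBEX2-2 arrays here. Each of the other 8 genes has 1 probe on the array.

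**Figure D2:**
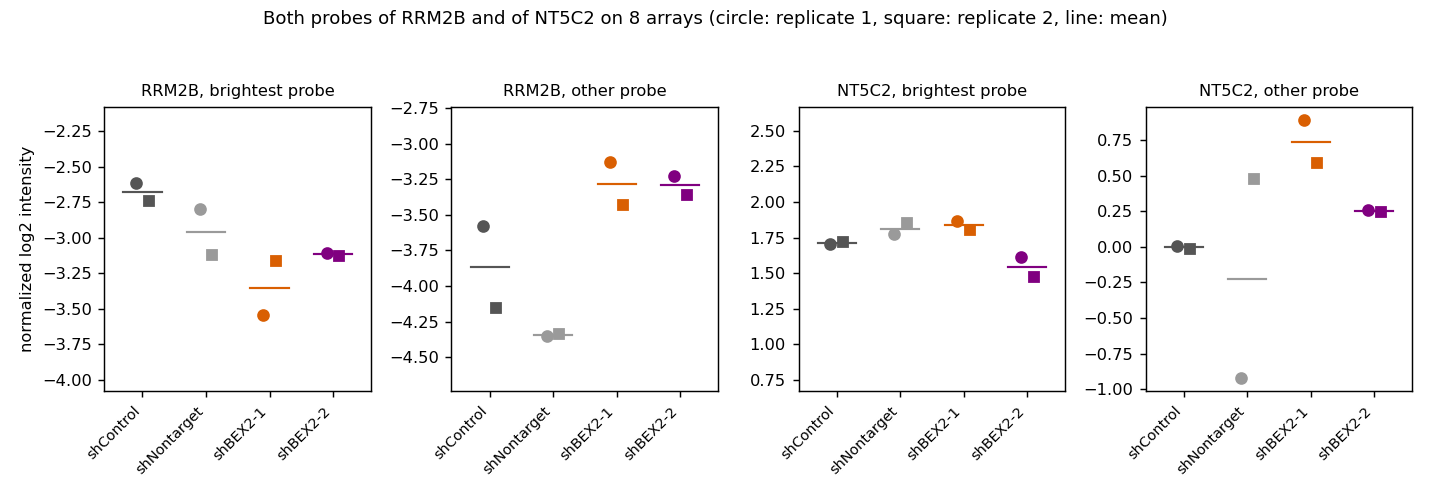
Normalized log2 intensity (y axis, with the same span in each panel) of both probes of RRM2B and of NT5C2 on the 8 arrays, by vector (x axis), with circles for replicate 1, squares for replicate 2 and a line at the mean. For RRM2B the brightest probe is lower on most BEX2-knockdown arrays (-0.42 on the log2 scale) and the other probe higher on all 4 (0.82).

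Each subline was also set against all control arrays, in a fit of 4 vector means that shared 1 spread. In both of them the same 3 genes were higher past the threshold, SLC29A1, RRM1 and RRM2. The comparisons share their control arrays. As printed in the study, the target sequences of its BEX2 hairpins #1 and #2 are reverse complements of each other, shifted by 1 base. The sublines therefore cannot be taken as knockdowns by hairpins against separate sites. In shBEX2-1 cells 7.00% of all genes passed (3.38% of all genes were higher), and in shBEX2-2 cells 9.67% (4.86% higher). In shBEX2-1 cells the log2 fold changes were 0.84 for SLC29A1, 1.16 for RRM1 and 0.97 for RRM2 (adjusted p = 0.0224, 0.0426 and 0.0253 from limma). In shBEX2-2 cells they were 1.63, 1.53 and 1.90 in the same order (adjusted p = 0.00318, 0.0149 and 0.00327 from limma). With the replicate number as a block, RRM1 in shBEX2-1 cells no longer passed (adjusted p = 0.0614 from limma), which left 2 calls there, beside 4.95% of all genes.

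**Figure D3:**
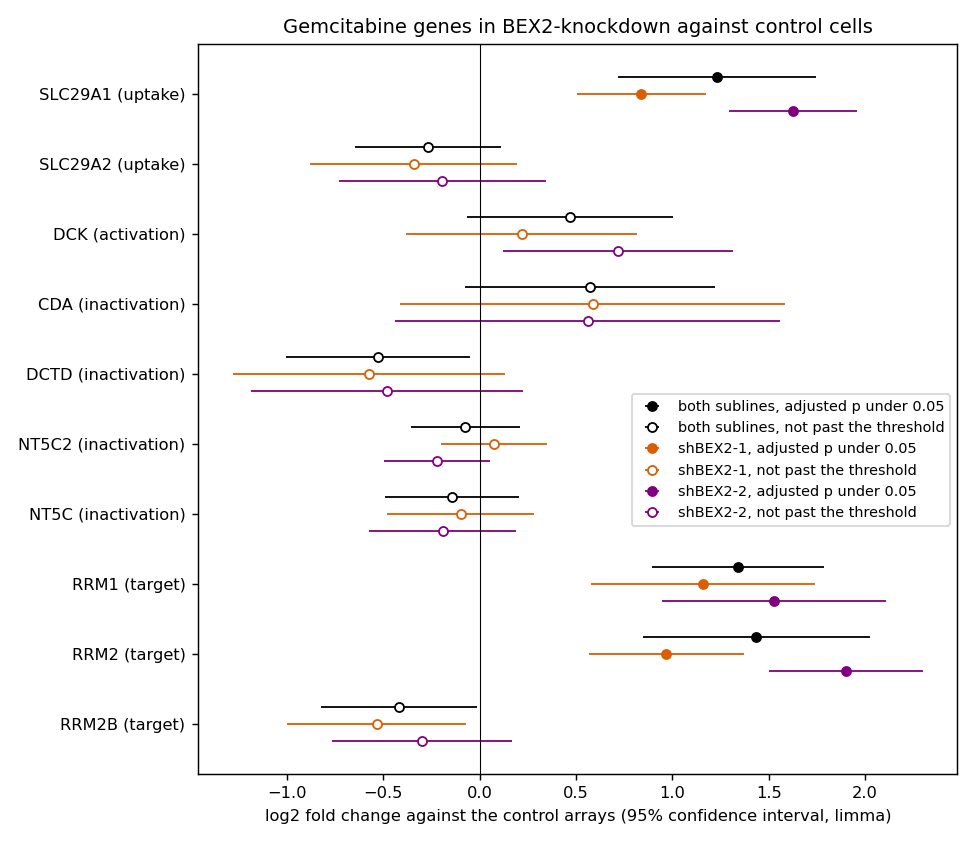
Log2 fold change (x axis, with 95% confidence intervals from limma) of the 10 genes (y axis) against the control arrays, for both sublines together in black, shBEX2-1 in orange and shBEX2-2 in purple, filled where the adjusted p was under 0.05. SLC29A1, RRM1 and RRM2 are filled in all 3 comparisons, and the intervals of most other genes cross 0.

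These subline calls depended on single arrays, and the counts of members went with the counts over all genes (limma). In shBEX2-1 cells 0 members passed without either shControl array or either shBEX2-1 array (3 or 4 at an unadjusted p under 0.05), where 0 of all genes passed (2197 to 3211 at an unadjusted p under 0.05). Without either shBEX2-2 array 0 members passed (3 at an unadjusted p under 0.05), beside 177 or 178 of all genes (3464 and 3466 at an unadjusted p under 0.05). Without shNontarget replicate 1 there were 7 members, beside 52.9% of all genes, and without shNontarget replicate 2 there were 5, beside 52.6%. In shBEX2-2 cells 0 members passed without either shBEX2-2 array (3 at an unadjusted p under 0.05), where 0 of all genes passed (2469 and 2603 at an unadjusted p under 0.05). The count was 8 without shNontarget replicate 1, beside 51.5% of all genes, 6 without shNontarget replicate 2, beside 54.5%, and 2 without any 1 of the remaining arrays, beside 2.07% to 4.31%. Over all those settings the log2 fold changes of SLC29A1, RRM1 and RRM2 kept their sign in both sublines.

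Set directly against each other, the sublines differed in 0 of the 10 genes past the threshold (limma). Of all 20464 genes 2 (0.00977%) passed, RSAD2 (5.58) and INHBB (-2.43), neither of them a gene of the pathway. At an unadjusted p under 0.05 there were 2 members, beside 1492 of all 20464 genes. The log2 difference, shBEX2-1 minus shBEX2-2, was -0.79 for SLC29A1 (95% confidence interval -1.17 to -0.40, adjusted p = 0.194 from limma) and -0.93 for RRM2 (-1.39 to -0.47, adjusted p = 0.201). In both genes the shBEX2-1 arrays were below the shBEX2-2 arrays without overlap. With 2 arrays on each side such a separation is easily reached, and its share over all genes was not counted. For RRM1 the difference was -0.37 (-1.04 to 0.30, adjusted p = 0.998 from limma).

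The control vectors did not differ past the threshold in any of the 10 genes (limma, 0 of 20464 genes called, 0%, and 1564 at an unadjusted p under 0.05, of which 0 were members). The largest log2 differences, shNontarget minus shControl, were -0.37 for DCK, 0.36 for NT5C and -0.31 for SLC29A1 (adjusted p between 0.749 and 0.909). Between the 2 shNontarget arrays the members differed by a median of 0.55, against 0.080 to 0.18 in the other vectors, so that likeness of the control vectors does not follow from the count of 0.

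Of the 33 other listed genes that transport, phosphorylate, degrade or meet gemcitabine and deoxynucleotides, 28 could be tested. In BEX2-knockdown cells 4 of the 28 were higher past the threshold and 2 lower, beside 6.68% and 6.26% of all genes tested. The count of lower genes is thus near the share over all genes. The median log2 fold change of the 28 was 0.22. All 4 that rose belong to the 9 target genes of DNA and nucleotide synthesis. None of the 5 tested transporters passed (1 uptake and 4 efflux genes), while SLC28A1, SLC28A3 and SLC29A4, which code for further carriers, and the nucleotidases NT5C1A and NT5C1B fell under the filter on dim probes.

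TYMS, thymidylate synthase, had the largest rise among them, with 0.57 and 0.56 in shControl, 1.01 and 1.16 in shNontarget, 2.31 and 2.42 in shBEX2-1 and 3.09 and 3.20 in shBEX2-2 cells. Its groups did not overlap, and the log2 fold change was 1.93 (SE 0.24, adjusted p = 0.00204 from limma). POLA1, the catalytic subunit of DNA polymerase alpha, ranged from 0.15 to 0.40 on the control arrays and from 1.35 to 1.68 on the BEX2-knockdown arrays (log2 fold change 1.24, adjusted p = 0.00104 from limma). CTPS1, a CTP synthase named CTPS on the array, ranged from 1.71 to 2.18 and from 2.51 to 2.82 (0.75, limma adjusted p = 0.0111). The second probe of CTPS1 gave 0.88. Neither gene's groups overlapped. POLD1, the catalytic subunit of DNA polymerase delta and the only called gene of the list whose groups overlapped, had a log2 fold change of 1.03 (adjusted p = 0.0324 from limma), and its value in shNontarget replicate 2 (2.14) was above that in shBEX2-1 replicate 2 (2.08).

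The genes that fell were both mitochondrial. NT5M, the deoxyribonucleotidase of the mitochondrion, had the largest change of the list. It read -1.45 and -1.63 in shControl, -1.77 and -1.71 in shNontarget, -4.10 and -4.12 in shBEX2-1 and -3.49 and -3.54 in shBEX2-2 cells. All 4 BEX2-knockdown arrays were far below the controls, 4.50-fold by the fit (log2 fold change -2.17, SE 0.20, adjusted p = 0.000731 from limma), and the call held under all 23 alternatives that were run. The size depended on the background correction, since with normexp the log2 fold change was -1.07. TK2, the mitochondrial thymidine kinase, which also phosphorylates deoxycytidine, ranged from -1.61 to -1.34 on the control arrays and from -2.61 to -2.29 on the BEX2-knockdown arrays, 1.96-fold lower (log2 fold change -0.97, adjusted p = 0.00296 from limma, and -0.64 with normexp). TK2, TYMS and CTPS1 lost the call where shNontarget alone was the control (adjusted p = 0.0518, 0.0503 and 0.145 from limma).

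Subline by subline, TYMS, POLA1, CTPS1, NT5M and TK2 passed in both, where 7.00% (shBEX2-1) and 9.67% (shBEX2-2) of all genes passed. In shBEX2-2 cells 2 further genes passed, named after their values were seen. ABCC4, an efflux pump for nucleotide analogs, was higher with a log2 fold change of 0.90 (adjusted p = 0.0221 from limma), against 0.26 in shBEX2-1 cells (0.402). CMPK2, the mitochondrial UMP-CMP kinase, which interferon induces, was lower at -2.64 (adjusted p = 0.00874 from limma). In shBEX2-1 cells CMPK2 had a log2 fold change of 1.28 (adjusted p = 0.0841), and the difference between the sublines of 3.91 did not pass the threshold (adjusted p = 0.0565 from limma). The control vectors, shNontarget minus shControl, were themselves -0.71 apart in ABCC4 and -1.50 apart in CMPK2 (limma adjusted p = 0.423 and 0.419).

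**Figure D4:**
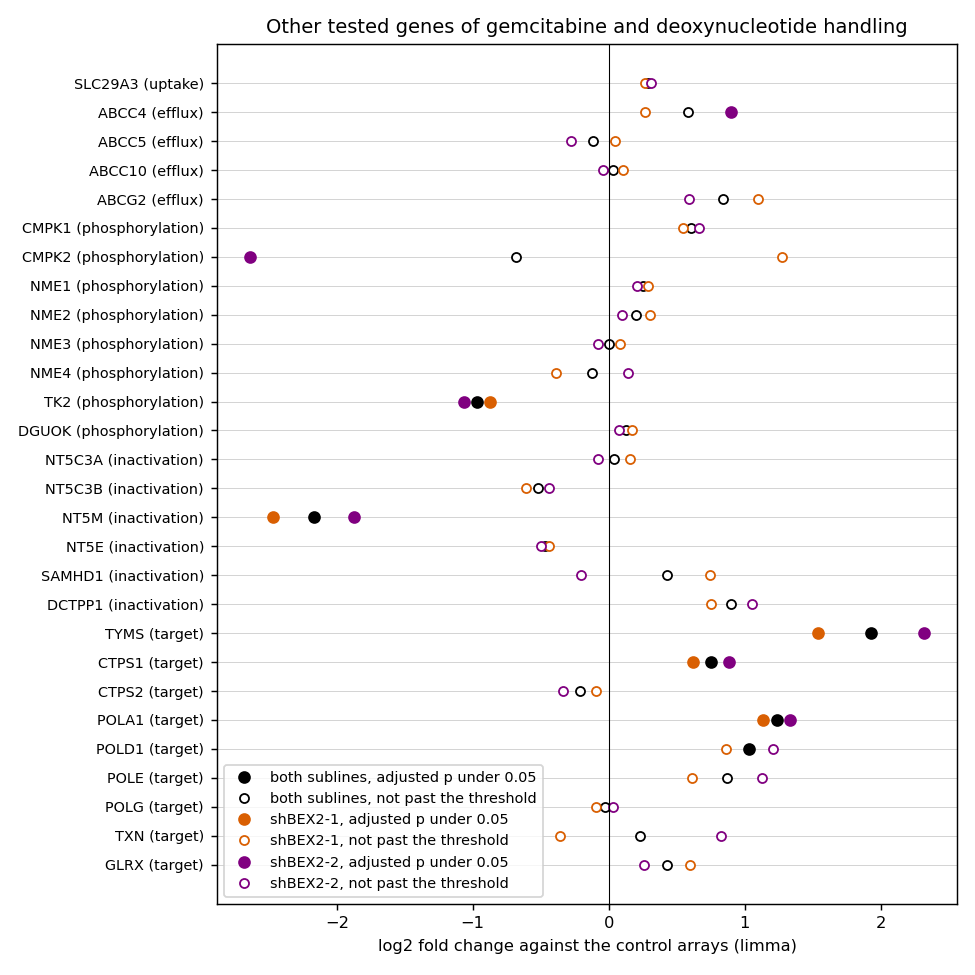
Log2 fold change against the control arrays (x axis, limma) of the 28 other tested genes of gemcitabine and deoxynucleotide handling (y axis, with their role), for both sublines together in black, shBEX2-1 in orange and shBEX2-2 in purple, filled where the adjusted p was under 0.05. NT5M (-2.17) and TK2 (-0.97) are filled on the left and TYMS (1.93), POLA1 (1.24) and CTPS1 (0.75) on the right in all 3 comparisons, and CMPK2 has the widest gap between sublines.

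RRM1, RRM2, TYMS and POLA1 are also members of the S phase gene list of the Seurat package. Of the 41 other genes of that list, TYMS and POLA1 included, 38 were higher past the threshold in BEX2-knockdown cells and 0 lower. Over all genes tested 6.68% were higher past it and 6.26% lower. The median log2 fold change of the 41 genes was 1.57, beside 1.34 for RRM1 and 1.43 for RRM2. Arrays of whole cultures cannot tell more cells in a phase from more RNA per cell. The median level of the 41 genes was -0.19 and -0.27 in shControl, 0.40 and 0.12 in shNontarget, 1.17 and 1.22 in shBEX2-1 and 1.58 and 1.57 in shBEX2-2 cells. By their means, the vectors stood in the same rising order in RRM2 and in the S phase list, shControl, shNontarget, shBEX2-1 and shBEX2-2, while in SLC29A1, which the list does not hold, shNontarget was lowest. How far the S phase level accounts for the 3 genes was not tested. Without the S phase genes, 2 of 26 other pathway genes were higher past the threshold and 2 lower, each near the share over all genes (6.68% and 6.26%).

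**Figure D5:**
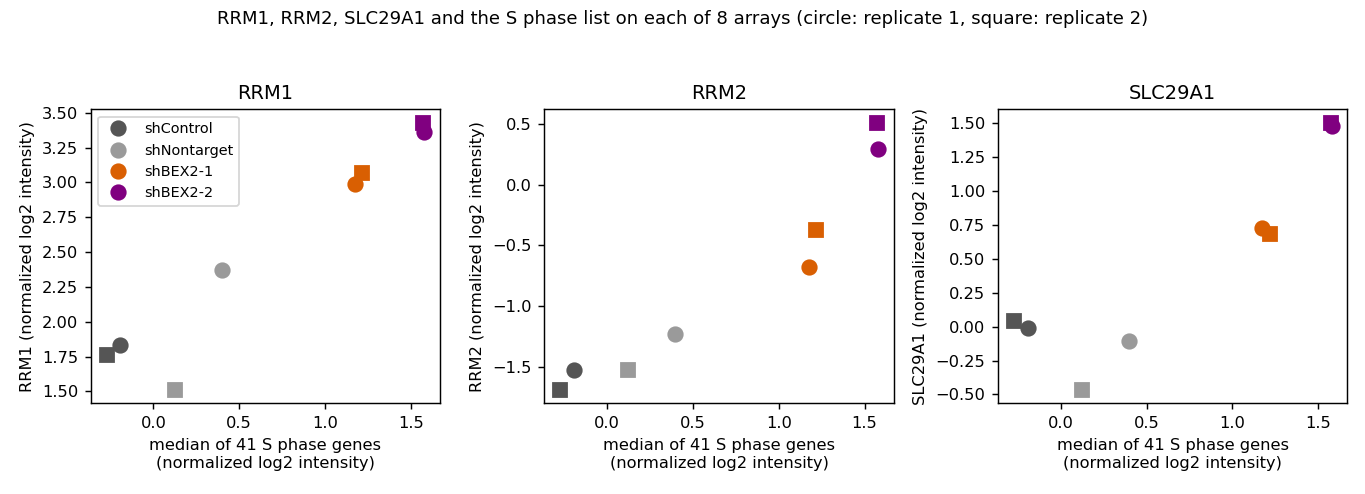
Normalized log2 intensity of RRM1, RRM2 and SLC29A1 (y axes) against the median normalized log2 intensity of 41 S phase genes (x axes) on each of 8 arrays, with 1 colour for each vector, circles for replicate 1 and squares for replicate 2. The arrays fall into a control cluster (S phase median -0.27 to 0.40) and a BEX2-knockdown cluster (1.17 to 1.58), and all 3 genes are higher in the second.

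The 10 genes did not move as 1 block. Over the 8 arrays, which fall into 2 groups, SLC29A1 correlated with RRM1 and RRM2 at Pearson's r of 0.93 and 0.96 and RRM1 with RRM2 at 0.95. DCK correlated with SLC29A1 at 0.85 and with NT5C at -0.81, and CDA with SLC29A2 at -0.93. The last pair is spread mainly by the shNontarget arrays, in which CDA was high where SLC29A2 was low. Genes most like RRM2 over the 8 arrays were CDC25A, a phosphatase that activates cyclin-dependent kinases (r = 0.995), NRGN (0.993) and MSH6, a mismatch repair subunit (0.990). For DCK they included ELOVL6 (0.982) and RPN2 (0.982), and for CDA they were OAZ1 (0.998), LSM6 (0.995) and COPS3 (0.994), as a description with no test. The whole span of CDA over the 8 arrays (1.61) is the gap between the shNontarget arrays, so likeness to CDA depends largely on those arrays.

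Within an array, the sum of SLC29A1 and DCK minus that of RRM1 and RRM2 (log2 scale) sets uptake and activation against the reductase. Relative to the mean of the control arrays it was 0.45 and 0.60 in shControl, -0.52 and -0.53 in shNontarget, -0.94 and -1.20 in shBEX2-1 and -0.94 and -1.22 in shBEX2-2 cells. All BEX2-knockdown arrays were below all control arrays, by 1.08 on average. The shNontarget arrays were in turn 1.05 below the shControl arrays, a gap of nearly the same size between control vectors. The control arrays had a standard deviation of 0.61 (n = 4) and the BEX2-knockdown arrays of 0.16 (n = 4).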

How the data were processed

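Total RNA of HuCCT1 cells was labelled with Cy3 by the authors (Low Input Quick Amp method) and hybridized to Agilent arrays, and the slide was read with Agilent Feature Extraction 10.7.3.1, per the submitters' processing notes. The deposited processed intensity of each spot is background-subtracted and detrended within its array, with low values replaced by a surrogate (19.9% to 25.9% of the non-control spots), and is not scaled between arrays. The series table deposited by the authors gives equal intensities, to within 0.497%.

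Here control spots and non-uniformity outliers (3 to 15 spots an array) were left out, and the deposited intensities were put on the log2 scale, less the 75th percentile of their array (666 to 838 on control and 441 to 631 on BEX2-knockdown arrays). Spots of a probe were averaged. A probe had to be well above background on 4 or more of 8 arrays, and a gene was read by its brightest such probe. Over all genes tested the log2 fold change had a median of 0.027, and no shift was applied. Probe coordinates are those of the array design (hg19), and whether a probe lies in a coding or untranslated exon was not analysed here. Gene names are those of the design, of which 19607 of 34809 are in a RefSeq gene table, with 10 of 10 members. Where both arrays of a vector read below background, a fold is a bound against the probe's own value or, where higher, the dimmest well-above-background probe of that array.

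Tests used R 4.3.3, limma 3.58.1 (lmFit and eBayes with a trend on intensity, Benjamini-Hochberg, threshold 0.05) and statmod 1.5.0. Files were read with Python 3.11.15, pandas 2.3.3 and numpy 2.4.6, and figures drawn with matplotlib 3.10.9. Groups came from the labels. The 4 BEX2-knockdown arrays were compared with the 4 control arrays, and a model with the 4 vectors gave the sublines and the control vectors. The exact permutation test over arrays has 70 relabellings. The fits were tested on simulated data with the spread of the shControl and shBEX2-2 arrays and no differences between vectors of a group. That test leaves out the wide spread of the shNontarget arrays, so it cannot show how the fits do with it.

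The genes, lists and rules were chosen with earlier results of these data known. Named are the 10 genes, BEX2, every other pathway gene called in the comparison of both sublines whose groups do not overlap (at most 10), the 3 genes most correlated with RRM2, DCK and CDA, and marker genes, of which some are not reported here. ABCC4, CMPK2, POLD1, RSAD2 and INHBB were named after their values were seen. Alternatives were quantile normalization, normexp background correction (offset 50), the percentile over detected probes, the authors' table, no or a stricter filter on dim probes, all probes of a gene averaged or its other probe, a block for the replicate number, a random block for the vector, other models, one control vector at a time, leaving out each array, eBayes without the trend, the methods' t-test and the rank product that the methods name (16 pairs of arrays, 100 permutations). Arrays of equal replicate number were treated as pairs in the fits with a block (the reported fits have none), since names of the deposited files carry one day for replicate 1 and another for replicate 2, whose meaning is not stated. Replicate differences of the vectors correlated across genes with r from -0.063 to 0.26.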

Additional observations from a re-analysis of the deposited data

Results flagged for a closer look

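In 32 groups of 4 arrays, formed by the control or the BEX2-knockdown arrays of each named gene and BEX2, 1 had an array far from the others by Dixon's ratio, where chance gives about 1 in 20. RRM2B, by its brightest probe, had a normalized log2 intensity of -3.54 on shBEX2-1 replicate 1, below the remaining BEX2-knockdown arrays (-3.16 to -3.10), with a ratio of 0.868. The other RRM2B probe was highest on that same array (-3.13), and the cause was not tested.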

How the results depend on the processing

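The direction of SLC29A1, RRM1 and RRM2 in BEX2-knockdown cells held under all 23 alternatives of each, with log2 fold changes of 1.08 to 1.39, 1.22 to 1.51 and 1.24 to 1.64. The calls held under all but those with only shNontarget as control (adjusted p = 0.0744, 0.0720 and 0.114 from limma) and, for SLC29A1, the rank product (0.0730). The rank product also lost POLA1, TK2 and CTPS1 (0.0683, 0.139 and 0.375). The count of called members (3) was 6 with only shControl as control, 0 with only shNontarget, and 3 to 4 without 1 array. With only shNontarget 3 members had an unadjusted p under 0.05 (limma), a count not given for all genes. The count of called genes (2648) was 6842 with only shControl, 340 with only shNontarget, 839 by the rank product and 1243 to 4728 without 1 array. The methods' t-test gave 5417 genes and 4 members at an unadjusted p under 0.05, and 2168 and 3 after Benjamini-Hochberg adjustment. For shBEX2-1 the count of members (3) was 0 to 7 without 1 array (0 to 10821 of all 20464 genes), and for shBEX2-2 (3) it was 0 to 8 without 1 array (0 to 11149). For shBEX2-1 the count was 0 with only the arrays of the compared groups and 1 with either control vector alone. Counts over all genes are not given for those settings, so the 0 and 1 cannot be read as a result about the members. With the replicate number as a block the count of members was 2 for shBEX2-1 (4.95% of all genes) and 3 for shBEX2-2 (7.79%), and no other member's call changed. The log2 fold change of NT5C2 turned to 0.27 with the mean of its probes and 0.61 with its other probe, that of RRM2B to 0.20 and 0.82, and that of NT5C to 0.037 with only shControl as control. The cause of these moves was not tested. DCK and RRM2B read near the dim end of the array, which limits what can be said of them.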
